A study of Caenorhabditis elegans with 3 samples.

Results

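The messenger RNA of whole control larvae of Caenorhabditis elegans at the L4 stage, the last larval stage before adulthood, was described gene by gene from 1 library. Its members are all genes with a value above 0 in the gfp(RNAi) column of the authors' gene table, which was 18386 of the 46135 genes listed (39.9%). Values are FPKM, fragments scaled to transcript length and to the mapped fragments of the library. This level is divided by length and can therefore be set side by side between genes of 1 library, though less firmly for short transcripts.

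The study has 3 libraries, ham-3(RNAi), swsn-2.2(RNAi) and gfp(RNAi), each from wild-type N2 animals that were synchronized as L1 larvae, fed bacteria carrying an RNAi clone for 36 hours and collected as L4 larvae. The gfp clone targets the jellyfish green fluorescent protein, a sequence that N2 worms lack, and it serves as the feeding control. The growth temperature is uncertain, because the series design gives 25 °C and the growth protocol gives 35 °C. RNA was extracted from whole animals with TRI Reagent, enriched for poly(A) and sequenced as paired-end reads of 73 bp. There is 1 gfp(RNAi) library and no replicate, so no test was possible, no value has an error across animals, and differences between libraries were not analysed. Values of the other libraries are given only for genes listed at 0 here, to show where such a gene had a value elsewhere.

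In the hermaphrodite, L4 is the stage at which the germline makes its sperm, before it switches to oocytes in the adult. The epidermis secretes a collagen cuticle anew at each moult, and the adult cuticle is built during the last one. Yolk is made by the adult intestine. Growing animals devote much of their messenger RNA to ribosomes and other housekeeping functions, while genes of single neurons are diluted in whole-animal RNA. In whole-animal RNA, fewer cells of a type and less RNA per cell cannot be told apart.

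The files hold no read counts. The spacing of the lowest values gave an inferred depth of about 19740000 fragments, with a length offset of 180 bp. Of the 1669 genes used for it, 60.9% came out within 0.1 of a whole number of fragments. The depth and offset were those that made this share largest. Evenly spread values would give 20% at a fixed setting, and their share at the best setting was not computed. At that depth a gene of 1000 bp at 1 FPKM rests on about 16.19 fragments (95% exact Poisson interval 0.572 to 1.62 FPKM), and at 10 FPKM on about 162 fragments (8.52 to 11.7 FPKM). A count of 0 over 1000 bp allows up to 0.185 FPKM, taking 3 fragments as the limit. Among the 12577 genes above 0 with 1 annotated transcript longer than the offset, 6603 (52.5%) rested on at least 100 fragments and 1632 on fewer than 3. Copies made by PCR are not separate molecules, which means that all intervals and limits given here cover counting error only.

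The values spanned over 6 orders of magnitude on a log10 scale and were unevenly spread. The median gene above 0 had 9.65 FPKM, with quartiles of 1.40 and 31.6 FPKM. Of the 18386 genes, 14428 (78.5%) had at least 1 FPKM, 9083 at least 10 FPKM, 1589 at least 100 FPKM and 182 at least 1000 FPKM. Those 182 genes held 39.9% of the summed FPKM of 1076130, and 330 genes held 50% of it. The 40 highest genes held 18.1% and the 1000 highest held 67.6%. Of 19560 protein-coding genes, 16612 (84.9%) were above 0. Counts above 0 in the families and lists below are to be read against that share, which several of them do not exceed. At the other end, the lowest value above 0 was 0.00523 FPKM for lov-1, a polycystin of male sensory neurons, and all genes below it are listed at 0.

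**Figure D1:**
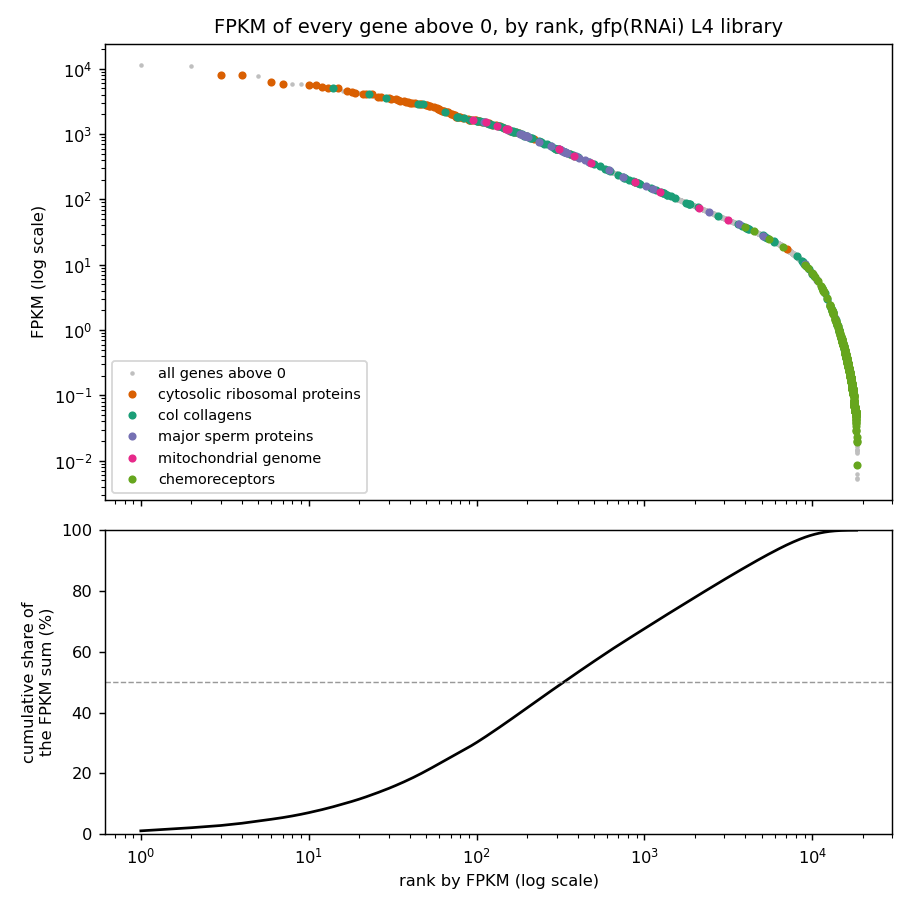
Upper panel: FPKM (log scale) of each of the 18386 genes above 0 against its rank (log scale), with 5 gene groups in colour. Lower panel: cumulative share of the FPKM sum in percent, which crosses the dashed 50% line at rank 330; ribosomal protein genes fill the upper left and chemoreceptor genes the lower right.

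The highest levels belonged to a pair of neighbouring genes on chromosome V. The gene pud-2.2 (F15E11.14) had 11556 FPKM (95% counting interval 11467 to 11645) and pud-1.2 (Y19D10B.7) had 11069 FPKM (10985 to 11154). Both encode small proteins named for their changed abundance in mutants of the insulin receptor gene daf-2. In the WBcel235 annotation pud-1.2 lies on the minus strand at V:2322038-2322566 and pud-2.2 on the plus strand at V:2323014-2323524. All 6 pud genes lie in the same stretch of chromosome V, and together they held 2.23% of the FPKM sum. The other 4 were lower, at 896 FPKM for pud-3, 447 FPKM for pud-4, 50.7 FPKM for pud-1.1 and 5.60 FPKM for pud-2.1. How the authors divided fragments between the near-identical copies pud-1.1 and pud-1.2, or pud-2.1 and pud-2.2, is not given in the sources used here, so the sums are firmer than the single copies.

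Ribosomal protein genes dominated the top of the list. Of the 40 genes of highest FPKM, 26 carry the name of a cytosolic ribosomal protein in the table, 3 are cuticle collagens and 1 is the fatty acid and retinol binding gene far-2. The next genes after the pud pair were rpl-29 with 7900.5 FPKM, rpl-39 with 7899 FPKM (7733 to 8066), far-2 with 7782 FPKM (7723 to 7842) and rpl-41 with 6382 FPKM. The entry F54D7.7, now named rpl-41.2 and so not among the 26, had 5874 FPKM. Small-subunit genes began with rps-16 at 5682 FPKM, rps-24 at 5641 FPKM, rps-12 at 5194 FPKM and rps-17 at 5131 FPKM. Also outside the 26, the gene ubq-2, which encodes ubiquitin fused to a ribosomal protein, had 3407 FPKM (3357 to 3459). These transcripts are short, and 33 of the 40 highest genes have a longest annotated transcript under 600 bp, and 7 under 300 bp, such as rpl-39 with 236 bp. Levels of transcripts so near the 180 bp offset depend on the length correction of the authors' program, which the counting intervals do not cover.

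The 80 genes named in the table as cytosolic ribosomal proteins held 19.8% of the FPKM sum (95% counting interval 19.7 to 19.8%). This was more than any other family defined by a name prefix. A ribosomal gene without such a name, such as ubq-2, is not counted, so the share is not that of the whole ribosome. All 80 were above 0 and 73 of them had at least 1000 FPKM, with a median of 2261 FPKM, against 11.98 FPKM for all protein-coding genes above 0. By current names, the 47 rpl genes of the large subunit, 2 of them not among the 80, had a median of 2310 FPKM. The 31 rps genes of the small subunit had a median of 2242 FPKM, and rla-0, rla-1, rla-2 and ubl-1 were counted in neither. The exceptions at the low end were rpl-42 at 17.3 FPKM, rpl-24.2 at 183 FPKM and rla-2, a protein of the ribosomal stalk, at 495 FPKM. Weighted by full transcript length, with no offset taken off, the family held 9.92%. With the 180 bp offset its level came to about 1449115 of the inferred 19740000 fragments. Longer members had lower FPKM (Spearman's rho -0.53 over 80 genes of 236 to 1334 bp), whereas over 16612 protein-coding genes above 0 rho was 0.02. Both correlations are across genes of 1 library and are given as a description. The 65 genes named in the table as mitochondrial ribosomal proteins were all above 0 as well, in a narrow band at a lower level. Their median was 62.9 FPKM, and the highest of them, mrpl-12, had 147 FPKM.

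Other parts of the protein synthesis and breakdown machinery were high as well. The 6 elongation factor genes ranged from 437 FPKM for eef-1B.2 to 2634 FPKM for eef-1A.1, which delivers aminoacyl-tRNA to the ribosome, and its second copy eef-1A.2 had 698 FPKM. The other 3 were eef-2 at 1342 FPKM, eef-1G at 856 FPKM and eef-1B.1 at 715 FPKM. The 19 initiation factor genes had a median of 117 FPKM, led by the cap-binding gene ife-1 at 446 FPKM. Of 32 proteasome genes, 31 were above 0 with 0.543% of the sum. Its 14 core subunit genes had a median of 208 FPKM, led by pas-3 at 422 FPKM, and the 6 ATPases of its cap had a median of 176 FPKM. Of the 8 cytosolic chaperonin genes, cct-5 was highest at 389 FPKM and cct-6 is listed at 0.

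**Figure D2:**
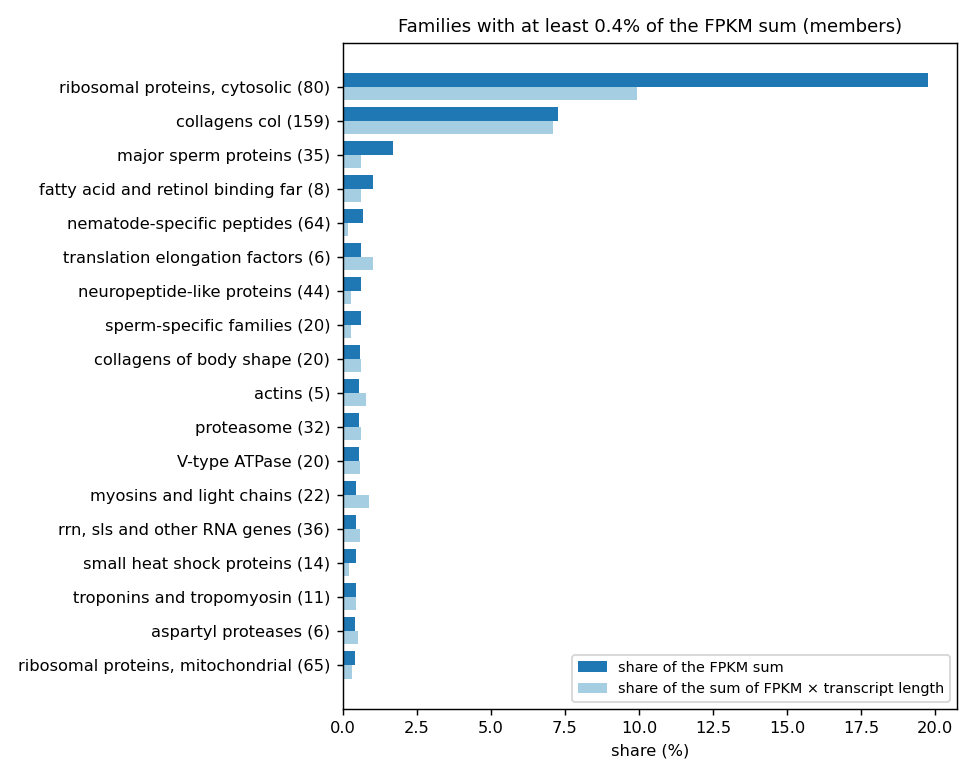
Share in percent of the FPKM sum (dark bars) and of the sum of FPKM times transcript length (light bars) held by each name-prefix family with at least 0.4% of the FPKM sum; the number of members is in brackets. Cytosolic ribosomal proteins held 19.8% by FPKM and 9.92% when weighted by length, col collagens 7.28% and 7.10%, and major sperm proteins 1.71% and 0.625%.

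Cuticle collagens formed the next largest family. Of 159 col genes, 157 were above 0, and together they held 7.28% of the FPKM sum (7.27 to 7.29%). Their levels above 0 were widely spread, from 0.0522 FPKM to 5111 FPKM, and the median over all 159 was 111.7 FPKM. The highest were col-13 at 5111 FPKM (5078 to 5145), col-117 at 4056 FPKM and col-92 at 3529 FPKM. A set of 31 col genes had at least 1000 FPKM, and 18 of them held 50% of the family's sum. Of the family's summed FPKM, 29.8% came from chromosome V and 28.5% from chromosome IV.

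The 20 collagen genes known from body shape mutants held 0.591% of the sum, and 18 of them were above 0, led by dpy-5 at 1077 FPKM, dpy-13 at 1055 FPKM and dpy-4 at 1043 FPKM, in which mutations shorten the animal. The other 2, dpy-7 and dpy-17, are listed at 0, although for dpy-7 the ham-3(RNAi) and swsn-2.2(RNAi) libraries gave 55.6 and 48.5 FPKM. Collagens of the adult cuticle were already high. Of the 5 genes listed for it, col-7 had 1103 FPKM, col-19 had 884 FPKM, col-62 had 283 FPKM, bli-2 had 264 FPKM and bli-1, a strut collagen, had 62.9 FPKM. Of the 4 genes listed for the dauer, an arrested alternative larva, the 3 above 0 were low, with col-2 at 1.26 FPKM (0.787 to 1.99), col-40 at 0.340 FPKM (0.128 to 0.757), and cut-1 at 0.0798 FPKM, and lea-1 is listed at 0. Cuticlins, another kind of cuticle protein, had a median of 1.65 FPKM over 35 genes, and cut-2 alone, at 236 FPKM, held 60.4% of their sum.

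Genes of the moult itself were at moderate levels. Of 23 moulting genes, 22 were above 0, with a median of 18.6 FPKM, and 8 of the 23 lie on the X chromosome. The highest were mlt-8 at 285 FPKM, mlt-10 at 70.7 FPKM, acn-1, an inactive relative of the angiotensin-converting enzyme, at 66.5 FPKM and the hedgehog-related gene qua-1 at 60.2 FPKM. The nuclear receptor nhr-23 is listed at 0 in all 3 libraries. Of 61 hedgehog-related genes, which encode secreted proteins largely of the epidermis, grd-5 had 821 FPKM, grl-16 had 495 FPKM and grl-4 had 345 FPKM, while the median was 4.52 FPKM. Of 13 heterochronic genes, which time the larval stages, 9 were above 0, led by lin-42 at 46.5 FPKM, lin-28 at 41.7 FPKM, nhl-2 at 36.99 FPKM and the microRNA Argonaute alg-1 at 23.4 FPKM. The other 4, lin-41, ain-1, hbl-1 and alg-2, are listed at 0, but for ain-1 the ham-3(RNAi) and swsn-2.2(RNAi) libraries gave 48.2 and 46.1 FPKM.

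Sperm genes were prominent. All 35 major sperm protein genes, which encode the cytoskeletal and signalling protein of nematode sperm, were above 0 and held 1.71% of the FPKM sum (1.69 to 1.72%). Their median was 526 FPKM, and the highest were msp-79 at 1525 FPKM (1487 to 1563), msp-53 at 1146 FPKM and msp-36 at 1006 FPKM, against 1.55 FPKM for msp-32 at the low end. The copies are near-identical, so a level of a single msp gene is less certain than their sum. They lie on chromosome IV (20 genes, 64.8% of the family's sum) and chromosome II (15 genes, 35.2%). The 20 genes of the sperm-specific families ssp, ssq and msd held another 0.599%, led by ssp-9 at 1427 FPKM, msd-1 at 1214 FPKM and msd-4 at 693 FPKM. The sperm list of 33 genes overlaps with these families, as it includes ssp, ssq and msd genes. Of the 33, 32 were above 0 with a median of 30.1 FPKM, and fer-1, a ferlin of sperm membrane fusion, is listed at 0.

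Small nematode-specific peptide genes stood beside them. Of 64 nsp genes, 49 were above 0, a smaller share than the 84.9% of all protein-coding genes, and they held 0.688% of the sum. The 12 nspd genes, 3 of them listed at 0, held most of that, with a summed level of 5022 FPKM. The highest were nspd-3 at 1264 FPKM, nspd-2 at 803 FPKM and nspd-7 at 758 FPKM. Transcripts of the nspd genes above 0 are 213 to 222 bp, little over the 180 bp offset. Their levels therefore depend on the length correction of the authors' program. Weighted by transcript length, the nspd genes held 0.0959%, against 0.467% by FPKM. The 20 nspc genes, all on the X chromosome, had a median of 25.4 FPKM.

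Germline genes were at intermediate levels. Of 34 germline genes 32 were above 0, with a median of 42.6 FPKM, against 9.65 FPKM for all genes above 0. The highest were the RNA helicase gene cgh-1 at 291 FPKM, car-1, which encodes its partner in RNA granules, at 284 FPKM, the P granule helicase glh-1 at 255 FPKM and the translational repressor gld-1 at 176 FPKM. Listed at 0 were him-17, which had 28.3 FPKM with ham-3(RNAi) and 29.4 FPKM with swsn-2.2(RNAi), and mes-4, which is at 0 in all 3. Of 24 oocyte and eggshell genes 21 were above 0, with a median of 36.6 FPKM, led by perm-4 at 152 FPKM, perm-2 at 149 FPKM, the kinase gene mbk-2 at 106 FPKM and pos-1 at 83.6 FPKM. The eggshell genes egg-1, cpg-2 and cpg-3 are listed at 0. None of the 34 germline, 24 oocyte and 33 sperm genes lies on the X chromosome, where 13.6% of protein-coding genes lie.

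Yolk protein genes were present, below most ribosomal protein genes. The 6 vitellogenin genes held 0.0933% of the FPKM sum, with 449 FPKM for vit-2 (445 to 453), 389 FPKM for vit-6, 112.02 FPKM for vit-5, 27.5 FPKM for vit-1, 21.2 FPKM for vit-4 and 5.43 FPKM for vit-3. Several of these are close copies of each other. Genes of the early embryo were at or near 0: of 10 genes 6 are listed at 0, and the other 4 were med-2 at 0.845 FPKM, end-3 at 0.588 FPKM, pes-1 at 0.402 FPKM and tbx-38 at 0.115 FPKM. Of 9 genes of male sensory neurons none reached 1 FPKM, and the highest were cil-7 at 0.822 FPKM and cwp-4 at 0.596 FPKM. Set against the L4 label, sperm and adult cuticle genes were measured, as were oocyte and eggshell genes. So were vit-2 and vit-6, which adults make. The oocyte and eggshell list had a higher median (36.6 FPKM) than the sperm list (30.1 FPKM), which holds no major sperm protein gene. The summed level of the oocyte and eggshell list was lower, at 1137 FPKM against 6318 FPKM for the sperm list. At least 100 FPKM was reached by 3 oocyte and eggshell genes and by 12 sperm genes. Apart from gsp-3 and gsp-4, those 12 were ssp, ssq and msd genes, which are also counted in the sperm-specific families above. The highest spe gene of the list, spe-11, had 70.5 FPKM. Weighted by transcript length, the sperm list held 0.316% and the oocyte and eggshell list 0.191%.

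**Figure D3:**
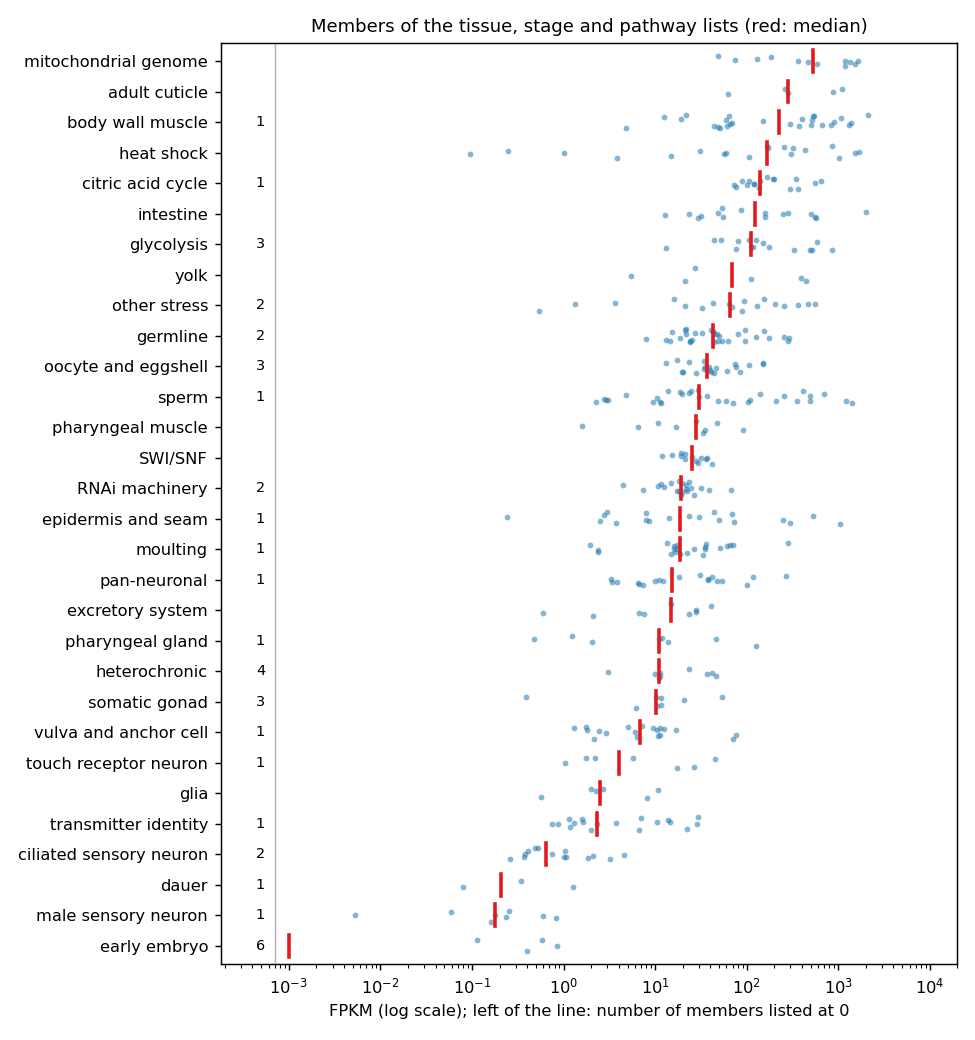
FPKM (log scale) of each member of the tissue, stage and pathway lists, ordered by list median (red bar); numbers left of the grey line count members listed at 0, and a median of 0 is drawn at the left edge of the scale. The lists of the mitochondrial genome (median 525 FPKM), adult cuticle (283 FPKM) and body wall muscle (224 FPKM) stand at the top, and those of ciliated sensory neurons, dauer, male sensory neurons and early embryo are below 1 FPKM.

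Body wall muscle genes had the highest median of the 17 tissue lists. The lists hold structural genes and regulators in differing parts, so their medians do not rank the tissues themselves. Of the 28 body wall muscle genes 27 were above 0, with a median of 224 FPKM, against 11.98 FPKM for all protein-coding genes above 0. The highest were pat-10, the body wall troponin C, at 2116 FPKM, act-4, an actin, at 1385 FPKM, and the myosin light chain genes mlc-3 at 1305 FPKM and mlc-2 at 1075 FPKM. The main body wall myosin heavy chain unc-54 had 524 FPKM (520 to 528), which was 8.08 times the level of myo-3, the minor heavy chain of the same filaments, at 64.8 FPKM (63.4 to 66.3). The twitchin gene unc-22 is listed at 0 and had 32.3 FPKM in the ham-3(RNAi) library. The 9 pharyngeal muscle genes were all above 0 at a lower level, with a median of 27.7 FPKM, led by tni-4 at 91.7 FPKM, tnt-4 at 46.9 FPKM, tnc-2 at 34.8 FPKM and the pharyngeal myosin myo-1 at 33.2 FPKM. Of 9 pharyngeal gland genes 8 were above 0, led by phat-4 at 127 FPKM, and lys-8 is listed at 0. The 5 actin genes held 0.556% of the sum, with act-3 at 2944 FPKM, act-2 at 664 FPKM, the intestinal act-5 at 568 FPKM and act-1 at 421 FPKM beside act-4.

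All 16 intestinal genes were above 0, with a median of 122 FPKM. The aspartyl protease gene asp-1 had 1991 FPKM, the intestinal actin act-5 had 568 FPKM, the cathepsin B gene cpr-6 had 552 FPKM and the ferritin gene ftn-2 had 507 FPKM. The transcription factor elt-2, which specifies the intestine, was lowest at 12.9 FPKM (11.6 to 14.3). Several digestive and lipid-binding genes were high as well. The 6 aspartyl protease genes that carry an asp name in the table had over 300 FPKM, from asp-2 at 315 FPKM to asp-1, and the other 4 were asp-6 at 691 FPKM, asp-3 at 600 FPKM, asp-5 at 521 FPKM and asp-4 at 328.5 FPKM. A further 11 genes that the annotation now names asp were far lower, with a summed level of 147 FPKM, of which asp-14 had 76.3 FPKM. The cysteine cathepsin gene cpl-1 had 743 FPKM and the lysozyme gene lys-1 had 773 FPKM. Among 8 far genes far-2 and far-1 (2548 FPKM) held nearly all of the family's 0.999% of the sum, with far-2 alone at 72.4% of it. Of 9 fatty acid binding lbp genes, lbp-2 had 947 FPKM, lbp-6 had 905 FPKM and lbp-9 had 735 FPKM. Of 20 subunit genes of the V-type ATPase, a proton pump, 19 were above 0 with 0.526% of the sum, led by vha-2 at 808 FPKM, and unc-32 is listed at 0.

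Epidermal and seam genes ranged from collagens at the top to regulators at the bottom, with 19 of 20 above 0 and a median of 18.8 FPKM. After dpy-13 came sqt-3 at 529 FPKM, col-10 at 297 FPKM and rol-6 at 249 FPKM, while the seam regulator ceh-16 had 0.239 FPKM. All 9 excretory genes were above 0, with a median of 14.96 FPKM, led by the aquaporin aqp-8 at 40.96 FPKM, exc-4 at 28.2 FPKM, exc-9 at 27.9 FPKM and exc-7 at 23.1 FPKM. Of 20 vulva and anchor cell genes 19 were above 0, with a median of 6.75 FPKM, led by let-60, the Ras of vulval induction, at 77.2 FPKM, fos-1 at 71.6 FPKM, lin-1 at 17.1 FPKM and the Hox gene lin-39 at 12.34 FPKM. The growth factor receptor egl-15 is listed at 0. Of 11 somatic gonad genes 8 were above 0, led by the gap junction gene inx-8 at 54.01 FPKM, and ehn-3, hnd-1 and mig-6 are listed at 0.

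Among the neuronal lists, which leave out the peptide families given below, genes active in nearly all neurons had the highest median and those of particular neuron types lower ones. Of 20 genes active in nearly all neurons 19 were above 0, with a median of 15.2 FPKM, led by synaptobrevin snb-1 at 266 FPKM, sbt-1 at 117 FPKM, and the neuropeptide processing enzymes egl-21 at 101 FPKM and egl-3 at 53.2 FPKM. Of 8 touch receptor genes 7 were above 0 with a median of 4.00 FPKM, led by the tubulin acetyltransferase mec-17 at 44.6 FPKM. The 19 genes that mark transmitter identity had a median of 2.33 FPKM, led by bas-1 at 29.6 FPKM and unc-25, which makes GABA, at 28.3 FPKM. The 16 genes of ciliated sensory neurons had a median of 0.644 FPKM, and their highest was daf-19, the regulator of cilia, at 4.53 FPKM. All 6 glial genes were above 0, with vap-1 at 10.7 FPKM, daf-6 at 8.19 FPKM, ptr-10 at 2.70 FPKM, fig-1 at 2.25 FPKM, kcc-3 at 2.01 FPKM and hlh-17 at 0.571 FPKM. The genes rab-3, mec-4 and osm-6 are listed at 0 in all 3 libraries, and cat-4 is listed at 0 here but had 99.6 FPKM in the swsn-2.2(RNAi) library.

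Peptide genes showed both neuronal and epidermal members. Of 30 FMRFamide-like peptide genes 29 were above 0, led by flp-10 at 82.5 FPKM, flp-28 at 77.6 FPKM and flp-9 at 60.4 FPKM. Their median of 23.7 FPKM was above the 15.2 FPKM of the genes active in nearly all neurons. Among 44 nlp genes, nlp-33 had 1753 FPKM (1707 to 1799), nlp-24 had 1184 FPKM and nlp-31 had 508 FPKM. The 11 genes nlp-24 to nlp-34, several of which encode antimicrobial peptides of the epidermis, had a summed level of 5162 FPKM, and 10 of them lie on chromosome V. Of 40 insulin-like peptide genes 32 were above 0, and ins-27 at 60.3 FPKM and ins-7 at 43.2 FPKM were highest.

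**Figure D4:**
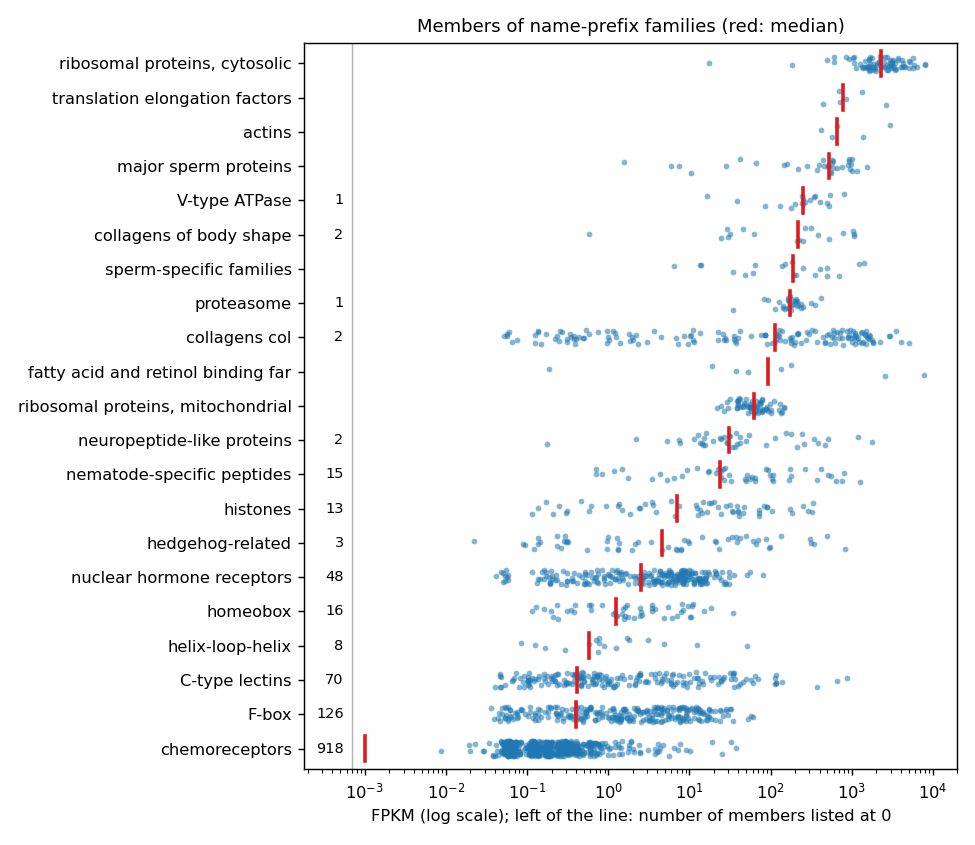
FPKM (log scale) of each member of 21 name-prefix families, ordered by family median (red bar); numbers left of the grey line count members listed at 0, and a median of 0 is drawn at the left edge of the scale. Mitochondrial ribosomal proteins form a narrow band around their median of 62.9 FPKM, whereas col collagens run from 0.0522 to 5111 FPKM.

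Genes of energy metabolism had high medians. The 12 protein-coding genes of the mitochondrial genome had a median of 525 FPKM and held 0.811% of the FPKM sum, and the entries of the mitochondrial chromosome including its ribosomal RNA held 0.827% (0.823 to 0.831%). Cytochrome oxidase genes led, with COX3 at 1638 FPKM, COX2 at 1509 FPKM and COX1 at 1349 FPKM, while the NADH dehydrogenase gene ND2 was lowest at 48.3 FPKM. Of 18 genes of the citric acid and glyoxylate cycles 17 were above 0, with a median of 139 FPKM, led by the glyoxylate enzyme icl-1 at 651 FPKM, citrate synthase cts-1 at 559 FPKM, aco-2 at 363 FPKM and mdh-2 at 344 FPKM. Of 19 glycolysis genes 16 were above 0, with a median of 111 FPKM. The glyceraldehyde phosphate dehydrogenase genes were uneven, with gpd-3 at 855 FPKM and gpd-2 at 517 FPKM, against 76.2 FPKM for gpd-4 and 43.7 FPKM for gpd-1. How any fragments shared by the gpd genes were divided is not given in the sources used here, so their single levels are less firm. Enolase enol-1 had 582 FPKM and the aldolase aldo-2 had 486 FPKM. The enzymes ipgm-1 of glycolysis and dlst-1 of the citric acid cycle are listed at 0 in all 3 libraries, as is hxk-3.

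Heat shock genes spanned the whole range. The 6 hsp-16 genes, small chaperones that heat induces, had a summed level of 3795 FPKM, with hsp-16.48 at 1702 FPKM, hsp-16.1 at 1515 FPKM, hsp-16.41 at 324 FPKM and hsp-16.2 at 254 FPKM. Their near-identical copies hsp-16.49 and hsp-16.11 had 0.0949 FPKM and 0.245 FPKM, so the sum is firmer than the single values. The heat-inducible genes F44E5.4 and hsp-70 had 429 FPKM and 59.3 FPKM, beside 1026 FPKM for daf-21, the HSP90 gene, and 860 FPKM for hsp-1, the constitutive HSP70. The gene F44E5.5 of the same list had 3.87 FPKM. The part of the uncertain growth temperature in these levels was not tested. Among 20 genes of other stress responses 18 were above 0, with a median of 66.1 FPKM, led by the chaperones of the endoplasmic reticulum hsp-3 at 558 FPKM and hsp-4 at 366 FPKM and the mitochondrial hsp-6 at 256 FPKM. The superoxide dismutase genes sod-2 and sod-3 are listed at 0, and sod-2 had 199 FPKM in the ham-3(RNAi) library.

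The study's targets and the RNAi machinery were measurable. The SWI/SNF chromatin remodelling genes, 13 of 13 above 0, lay close together around a median of 25.3 FPKM, from 11.8 FPKM for phf-10 to 41.3 FPKM for snfc-5. Both genes that the study's other libraries target, ham-3 and swsn-2.2, had 19.3 FPKM. Of 23 genes of the RNAi machinery 21 were above 0, with a median of 19.4 FPKM. The highest were the helicase rde-12 at 67.3 FPKM, rde-4, the partner of Dicer, at 39.1 FPKM, sid-5 at 31.5 FPKM and sid-2, the intestinal importer of double-stranded RNA, at 26.8 FPKM. Of 17 Argonaute genes wago-1 was highest at 125 FPKM, followed by csr-1 at 95.03 FPKM and prg-1 at 80.7 FPKM.

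Many regulators and receptors had low levels, against 7.14 FPKM for the median of all protein-coding genes and 11.98 FPKM for those above 0. The 288 nuclear hormone receptor genes had a median of 2.55 FPKM, and 4.34 FPKM over the members above 0, led by nhr-49, a regulator of fat metabolism, at 80.2 FPKM, with 48 listed at 0. The 66 homeobox genes of the ceh prefix had a median of 1.24 FPKM, led by ceh-38 at 34.1 FPKM. The 25 helix-loop-helix genes had a median of 0.571 FPKM, and hlh-30, a regulator of autophagy, held 62.9% of their sum at 51.1 FPKM. Of 390 F-box genes 264 were above 0, and the medians over members above 0 were 3.19 FPKM for fbxa, 0.733 FPKM for fbxc, with 1 gene so named only in the annotation, and 0.208 FPKM for fbxb. Chemoreceptor genes, the largest protein family searched, had 714 of 1632 members above 0, of which 39 reached 1 FPKM. Their sum was 0.0326% of all FPKM, with srr-4 at 37.2 FPKM, srr-6 at 32.7 FPKM and srw-86 at 25.0 FPKM highest, and 1113 of the 1632 lie on chromosome V. Adding 11 genes that carry a chemoreceptor name only in the annotation raised the share to 0.0534%, and srdh-1 among them, at 103 FPKM, was above srr-4.

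Histone genes were widely spread, with a median near that of all protein-coding genes. Of 72 histone genes 59 were above 0. Their median was 7.04 FPKM over all 72, against 7.14 FPKM for all protein-coding genes, and 14.7 FPKM over those above 0, against 11.98 FPKM. The highest were his-37 at 330 FPKM, his-72 at 319 FPKM and his-35 at 289 FPKM. The gene his-72 encodes the variant histone H3.3, as does his-71 at 173 FPKM. Replication-dependent histone genes are near-identical copies, and their messages largely lack a poly(A) tail in animals. The part of poly(A) enrichment and of shared fragments in these levels was not tested.

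Several genes outside all families, with known roles in energy and protein folding, were chosen here after their values were seen; others outside the families were higher. The adenine nucleotide translocator ant-1.1 had 2644 FPKM, the translationally controlled tumour protein gene tct-1 had 2209 FPKM, calreticulin crt-1 had 1770 FPKM, cytochrome c cyc-2.1 had 1736 FPKM and the nucleoside diphosphate kinase ndk-1 had 1660 FPKM. Genes without a letter-hyphen-number name in the table numbered 10301 of the 18386 above 0 and held 34.1% of the sum, with a median of 8.02 FPKM, against 12.7 FPKM for the 8085 named genes. Besides the pud pair and F54D7.7, the highest of them that encode proteins were Y37E3.8 at 5821 FPKM, Y82E9BR.3 at 4543 FPKM, W01D2.1 at 4213 FPKM, the suffixed entry Y38H6C.1 (1) at 3758 FPKM, F41F3.3 at 3245 FPKM and C37A2.7 at 3033 FPKM. The functions of these protein-coding entries are not given here, and ribosomal proteins may be among them. The non-coding RNA gene Y40B1A.5 had 3557 FPKM, but its transcript of 82 bp is shorter than the length offset of 180 bp. The 202 genes above 0 with transcripts no longer than that offset held 1.24% of the sum, and their levels depend on the length correction of the authors' program. Protein-coding genes held 97.5% of the FPKM sum and pseudogenes 0.986%. All 15351 piRNA loci and all 631 transfer RNA genes are listed at 0.

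By chromosome, the median protein-coding gene above 0 was highest on III (18.8 FPKM) and I (18.5 FPKM), followed by IV (14.9 FPKM) and II (11.9 FPKM), and lowest on X (6.17 FPKM) and V (5.90 FPKM). On V 77.3% of 4917 coding genes were above 0, whereas on X 87.1% of 2665 were, near the 84.6% of the 16883 autosomal genes. The X chromosome carries 13.6% of coding genes, but it held 7.80% of their summed FPKM and 11 of the 177 coding genes with at least 1000 FPKM (6.21%). Among the 80 cytosolic ribosomal genes, rpl-25.1 and rpl-11.2 lie on X, with 595 FPKM and 1623 FPKM. Cut into 3 stretches of equal length, all 6 chromosomes had their highest median in the middle. On V the median was 10.7 FPKM in the middle stretch, against 4.82 FPKM in the left and 3.79 FPKM in the right stretch, and on I it was 22.9 FPKM, against 18.3 and 12.1 FPKM.

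**Figure D5:**
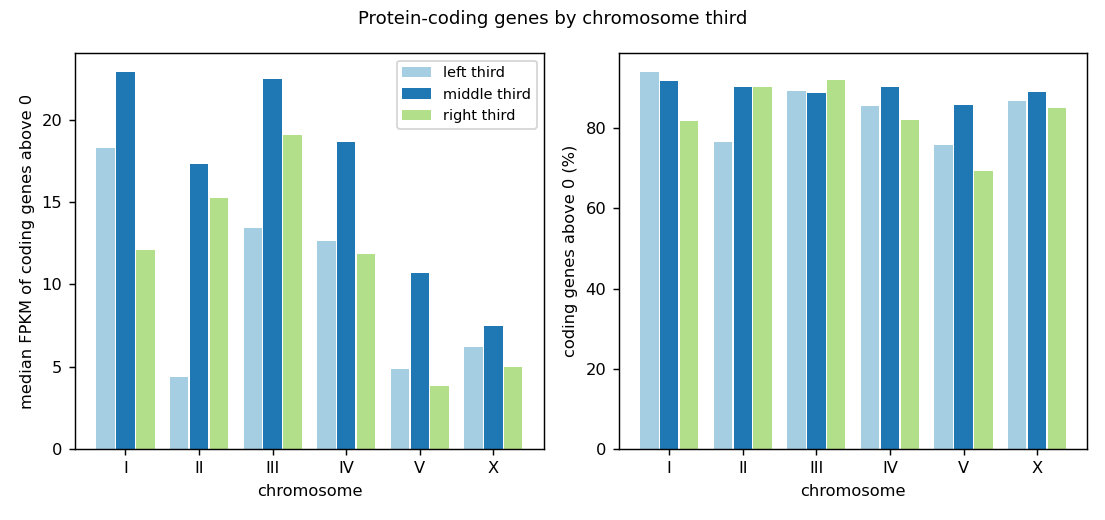
Protein-coding genes in the left, middle and right stretch, each of equal length, of the 6 nuclear chromosomes: median FPKM of genes above 0 (left panel) and percent of genes above 0 (right panel). The middle stretch has the highest median on all 6, from 7.45 FPKM on X to 22.9 FPKM on I.

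A listing at 0 does not show that a gene was silent. Of 19560 protein-coding genes, 2948 are at 0 in the gfp(RNAi) library. Of these 2948, 704 belong to the 1632 chemoreceptor genes, 1601 are at 0 in all 3 libraries and 224 had at least 10 FPKM in another library. Of the 476 genes of the tissue, stage and pathway lists 39 are at 0, a smaller share than among all protein-coding genes. Of these 39, 23 are at 0 in all 3 libraries and 8 had at least 10 FPKM in another. Besides those given above, the hexokinase gene hxk-2 had 30.6 FPKM with swsn-2.2(RNAi), and egg-1 had 68.3 FPKM with ham-3(RNAi). Genes that most cells use, such as ipgm-1 and cct-6, are among those at 0, so these entries may be failed estimates.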

How the data were processed

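The deposited gene table gives FPKM values that the authors made with Cufflinks and Cuffdiff, per the submitters' processing notes. Not given in the sources used here are their versions, the aligner, the build, and how fragments shared by copies were divided. Any fragments shared within a family, such as the gpd, eef-1A, act or col genes, would make single levels less firm than sums. FPKM of 1 library, gfp(RNAi), were used as deposited, with no pseudocount, filter or test; the other libraries serve only to say where a gene at 0 was seen elsewhere.

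Genes were ranked by FPKM. Families were taken from 54 name prefixes, and members were also sought in 17 tissue and 13 stage and pathway lists. The members and lists were chosen with earlier results of these data known; the sub-families (pud, nspd, nlp-24 to nlp-34 and the like), the chromosome stretches and a corrected chemoreceptor pattern came after values were seen. Genes named are the 40 highest, the 10 highest without a letter-hyphen-number name, the 3 highest of a family, the 4 highest of a list with its members at 0, and all members of lists of up to 6; others, including those at the low end of a list, were chosen after their values were seen.

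Names, gene types, places and transcript lengths came from the WBcel235 annotation by identifier, matching 45729 of 46135 entries; all 15351 piRNA intervals in the table were identical to it. Other intervals often cover part of a gene, so coordinates printed are the annotation's. Mitochondrial genes, and symbols the annotation repeats, were named from RefSeq WBcel235. Depth was inferred from genes with 1 transcript of at least 500 bp and FPKM up to 0.3. Tested on simulated data with the lengths of those 1669 genes, the step found 3 known depths to within 2.83% and their offsets to within 20 bp. Intervals for shares are exact binomial (Clopper-Pearson) for the inferred fragments of the family out of all fragments, rescaled to the FPKM share. They leave out that FPKM weights each fragment by the inverse of transcript length, so they are approximate. Python 3.11.15 with numpy 2.4.6, pandas 2.3.3, scipy 1.17.1 and matplotlib 3.10.9 were used.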

Additional observations from a re-analysis of the deposited data

How the results depend on the processing

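Counting genes from 0.1 FPKM gave 17608 and from 1 FPKM 14428, beside 18386 above 0. Summing the transcript table per gene gave the same count, the same 330 genes for 50% of the sum and the same shares. With FPKM weighted by transcript length, 701 genes held 50% of the sum, and the shares became 9.92% for cytosolic ribosomal proteins, 0.625% for major sperm proteins, 7.10% for col collagens and 0.761% for the mitochondrial chromosome. Without mitochondrially encoded genes the first 3 shares were 19.9%, 1.72% and 7.34%. Without major sperm proteins the ribosomal, col and mitochondrial shares were 20.1%, 7.40% and 0.841%. Without the gene of highest FPKM the 4 shares were 19.98%, 1.72%, 7.36% and 0.836%.

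Other settings were chosen after seeing the data. Over genes with a transcript of at least 300 bp the 4 shares were 17.9%, 1.83%, 7.83% and 0.882%. Without the 40 entries whose identifier carries a suffix the ribosomal and col shares were 19.9% and 7.31%, and with genes added by their current symbols 20.4% and 7.29%. Each of these shares lies outside the counting interval of its value as given. That interval is narrow at this depth and leaves out the weighting of fragments by length, so lying outside it is a description only.

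Of 30 list medians, 28 moved by less than 1.5 times when members at 0 were left out; the early embryo list became 0.495 FPKM and the dauer list 0.340 FPKM. All 6 chromosome medians moved by less than that without major sperm proteins. No paired analysis was possible because the result comes from no test and 1 library was described. Levels of genes under about 0.185 FPKM are limited by depth.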

Other observations

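The table holds 40 entries whose identifier repeats another gene's with a suffix, 35 of them above 0, with 0.441% of the FPKM sum. The highest was Y38H6C.1 (1) at 3758 FPKM, in the top 40, while the entry dct-16 that carries the plain identifier had 41.8 FPKM; what the suffixed entry covers is not given in the sources used here. The suffixed entry F15E11.15 (1) had 62.1 FPKM beside 896 FPKM for pud-3. A further 406 identifiers had no match in the annotation, and they held 0.182% of the sum. Of 21 ribosomal RNA genes 9 were above 0, with 0.405% of the sum and a highest value of 1408 FPKM for rrn-1.1.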
